A study of Mus musculus with 12 samples.

Results

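Collagens are the triple-helical proteins that carry the tensile load of connective tissue, and the chain genes described here are those whose platform symbol has the form Col, number, a, number (Col1a1, Col4a2 and so on). Of 18194 genes with a single symbol on the array, 42 met that rule, and for each the probe set brightest on average over the 12 arrays was used. A log2 intensity above 4 on at least 6 arrays was required for testing, and 23 of the 42 passed. Because a gene high in 1 group alone can pass that filter, the 23 are the collagen genes with measurable signal and do not stand for all 42. The study compared the cervix of pregnant CD1 mice, an outbred stock, on gestation day 15 after treatment of the dam with medroxyprogesterone acetate (MPA) or with vehicle. The MPA group (6 arrays) received 1 mg of this synthetic progestin per dam under the skin for 48 h, and the vehicle group (6 arrays) received an equal volume of ethanol. No transgene or mutation is named for either group. The labels do not say whether day 15 was the day of injection or of collection, and they do not state that the arrays hold separate dams. The p values therefore rest on array-to-array spread, part of which may be technical. Values are GCRMA intensities of whole cervical tissue, used here as log2. A difference is always the MPA mean minus the vehicle mean of log2 intensity.

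As background, 3 chains wind into each collagen molecule, so the chains of one type must be supplied together. Fibrillar collagens (types I, II, III, V, XI, XXIV and XXVII) form the load-bearing fibrils. Fibril-associated collagens with interrupted triple helices (FACIT) coat those fibrils, type VI forms beaded microfilaments between them, type IV forms the sheet under epithelium and around muscle and vessels, and types VIII and X form hexagonal networks. The cervix is rich in type I and type III fibrils, its stroma softens gradually during pregnancy as crosslinks and fibril order change, and progesterone action is known to hold off the later, rapid ripening. Progestins act through the progesterone receptor, and MPA also binds the glucocorticoid receptor.

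No collagen gene passed the test between MPA and vehicle. By limma with Benjamini-Hochberg adjustment over 8795 genes, 0 of 23 were called, against 0.0114% of all genes (1 gene). At an unadjusted p under 0.05 limma gave 2 of the 23, Col4a6 and Col25a1, against 5.00% of all genes. Col4a6 was the one above 0 (3.21% of all genes) and Col25a1 the one below 0 (1.80%). The exact two-sided permutation test gave 1 at that level, Col25a1. In 0 of the 23 did the MPA and vehicle arrays separate without overlap, against 0.341% of all genes. The differences themselves lay above 0 in 18 collagen genes and below 0 in 5, with a median of 0.27, while 56.3% of all genes lay above 0 and their median was 0.02. Collagen genes varied widely between arrays of one group: the median within-group SD was 0.75 for the 23, against 0.25 for all genes tested.

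Most collagen genes shared one pattern over the arrays, and it ran within the groups. The array MPA 2 was the lowest of 12 in 19 of 23 collagen genes, against 18.7% of all genes, and MPA 5 or MPA 6 was the highest in 19, against 32.6%. Among vehicle arrays, vehicle 4 was the lowest in 18 of 23, against 18.7% of all genes. In Col7a1, Col17a1 and Col25a1, MPA 5 was the lowest array (19.5% of all genes) and vehicle 4 the highest vehicle array (20.0%). MPA 2 was the highest MPA array in Col7a1 (5.85) and Col17a1 (9.68), but in Col25a1 it lay at 5.13, below every vehicle array. Averaged over the 7 fibrillar genes, the deviation from the 12-array mean was -1.35 in MPA 2, 0.79 in MPA 5 and -0.68 in vehicle 4. The 3' minus 5' signal of control genes, a measure of RNA quality, was lowest in MPA 1 (2.27) and MPA 2 (2.28). It was 2.60 in MPA 3, 2.67 in MPA 4, 2.66 in MPA 5 and 3.43 in MPA 6. Vehicle 1 was at 2.82 and the other vehicle arrays at 2.37 to 2.46. The part of RNA quality in the pattern was not tested.

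**Figure D1:**
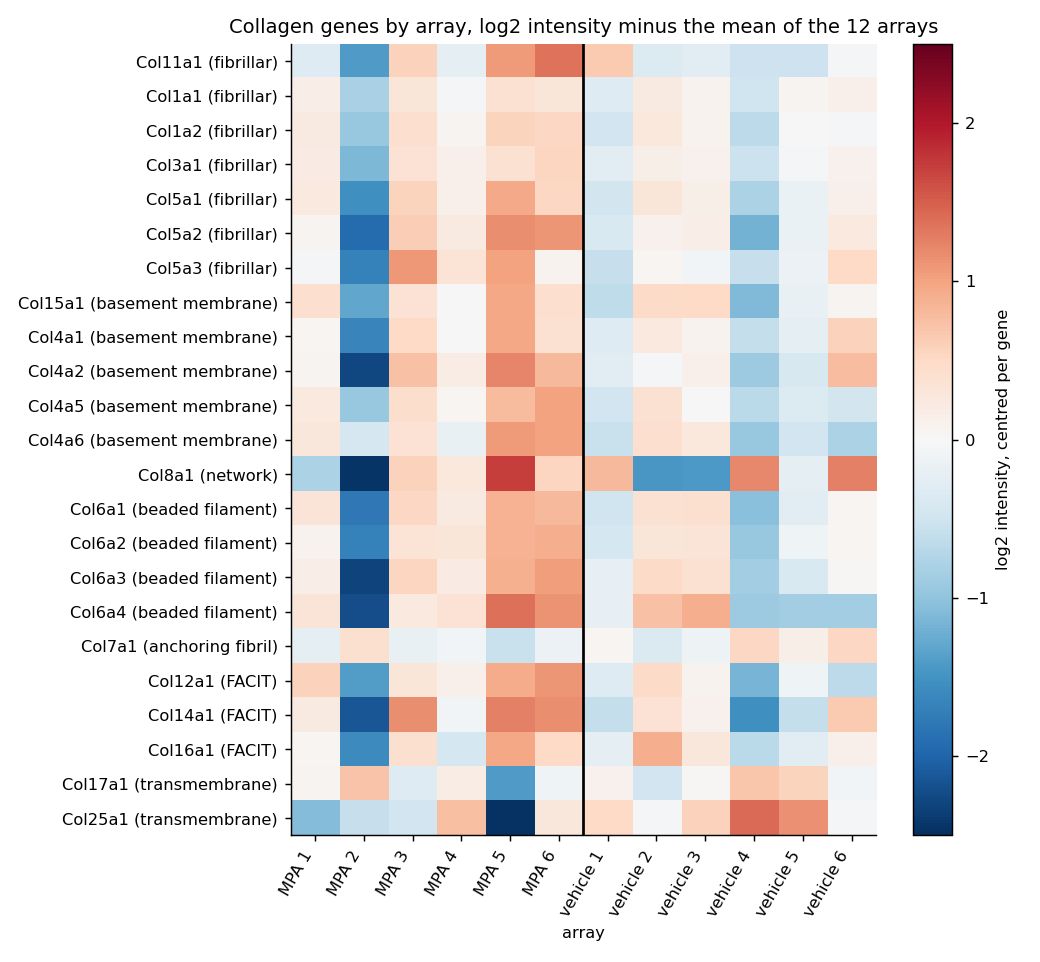
Each row is 1 of the 23 tested collagen genes, each column 1 array (6 MPA arrays left, 6 vehicle arrays right), and colour is the log2 intensity minus the mean of that gene over the 12 arrays. MPA 2 is the lowest array in 19 rows and MPA 5 or MPA 6 the highest in 19, while MPA 5 is the lowest array for Col7a1, Col17a1 and Col25a1.

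Markers of some cell types moved with or against this pattern, and their part in it was not tested. Not every list did: skeletal muscle genes had mean log2 deviations of -0.78 in MPA 2, -1.10 in MPA 5 and -0.02 in vehicle 4. Of 16 fibroblast genes that are no collagens, 14 were tested and Twist2 was never above 4. Their summed intensity ranged from 2254 to 14788 in MPA and from 4735 to 10948 in vehicle, and their mean log2 deviation was -2.05 in MPA 2, 1.00 in MPA 5 and -0.99 in vehicle 4. All 10 smooth muscle genes were tested, with sums of 11707 to 52932 in MPA and 21209 to 43639 in vehicle, and deviations of -1.72, 0.84 and -0.70 in those arrays. Basal epithelial genes ran the opposite way: all 9 were tested, their sums were 11855 to 31740 in MPA and 20162 to 30539 in vehicle, and their deviation was 0.47 in MPA 2, -1.04 in MPA 5 and 0.41 in vehicle 4. Markers of stroma, muscle and epithelium, the main tissues of a cervix, were thus all measured. In whole tissue, fewer cells of a type and less RNA per cell cannot be told apart.

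**Figure D2:**
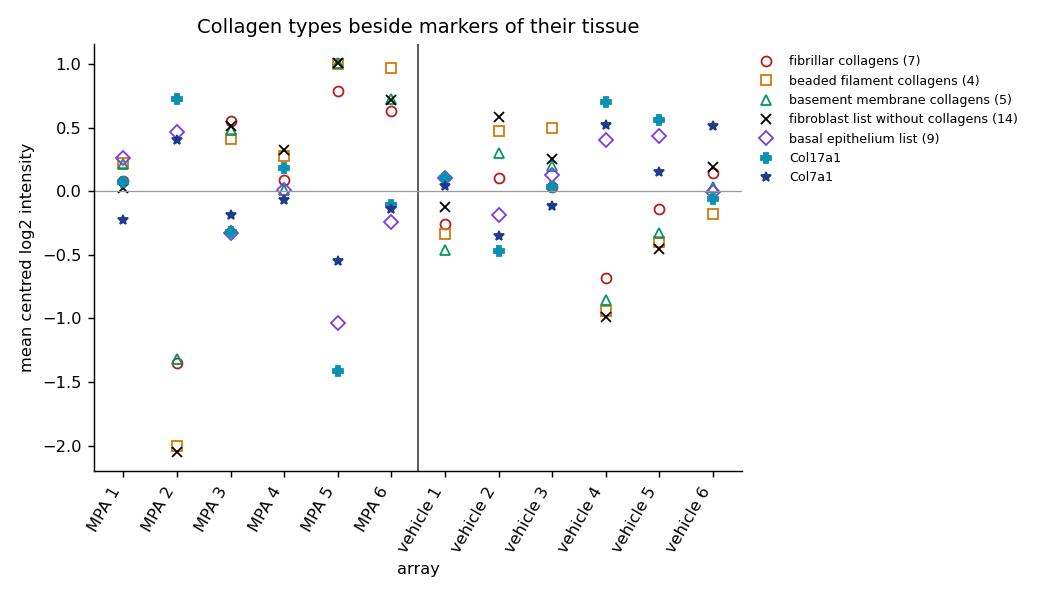
Mean log2 deviation from the 12-array mean (y axis) is drawn for each array (x axis, MPA arrays left, vehicle arrays right) for fibrillar, beaded filament and basement membrane collagens, for Col17a1 and Col7a1, and for the fibroblast and basal epithelium marker lists. Fibrillar collagens and the fibroblast list both have their lowest value in MPA 2 (-1.35 and -2.05) and their highest in MPA 5 (0.79 and 1.00), where the basal epithelium list is lowest (-1.04).

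The fluidics station that washed and stained each array was recorded, and it was uneven over the groups. Station 4 held MPA 3 to MPA 6, station 1 held vehicle 1 to vehicle 4, and only station 2 held both groups (MPA 1, MPA 2, vehicle 5 and vehicle 6). Within station 2 the difference was above 0 in 3 of 23 collagen genes (Col4a5, Col4a6 and Col17a1), against 53.8% of all genes, and the collagen median was -0.63. The 16 other genes above 0 over all arrays were below 0 there. That comparison holds 2 arrays against 2, and 1 of them is MPA 2. Without MPA 2, and with all stations, the difference was above 0 in 20 of 23 with a median of 0.64, 15 reached an unadjusted p under 0.05 (10.2% of all genes did), and 0 were called (0.00% of all genes). The share of all genes above 0 was then 55.7%. MPA 2 was the lowest array in most of these collagen genes, so leaving it out raises their MPA mean and narrows their spread. The counts without it were therefore partly fixed by that choice. With any other single array left out, 0 to 3 of the 23 reached an unadjusted limma p under 0.05. Of all 8795 genes, 319 to 545 did so. With the first principal component of all genes (48.5% of the variance) as a covariate, 14 of 23 lay above 0 with a median of 0.05, against 55.3% of all genes. That component was computed from the same values, collagen genes included. Its scores were -57.3 in MPA 2, -32.0 in vehicle 4 and 41.5 in MPA 5, so the smaller median was partly built in.

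**Figure D3:**
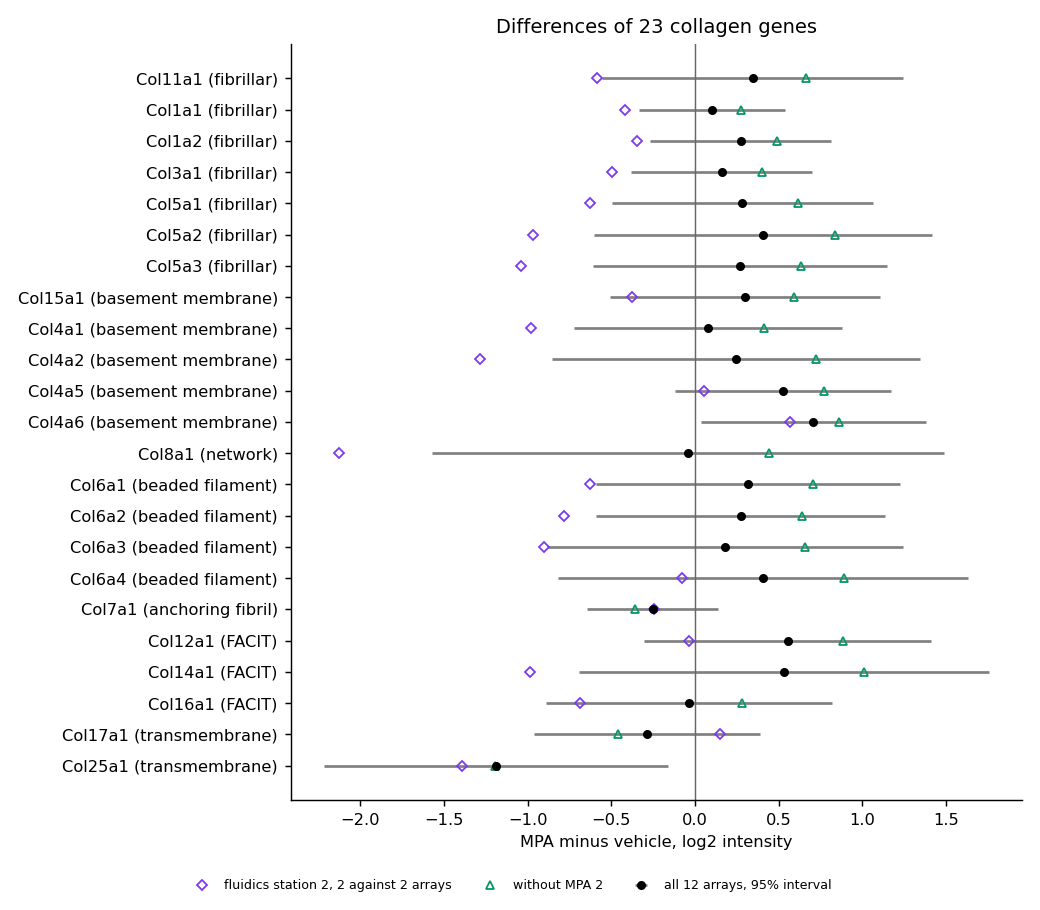
Points are the MPA minus vehicle difference in log2 intensity of the 23 tested collagen genes (x axis) with 95% intervals from limma, one gene per row grouped by class, with the difference within station 2 and the difference without MPA 2 beside it. All intervals but those of Col4a6 (0.03 to 1.38) and Col25a1 (-2.22 to -0.16) include 0, and the within-station values of 20 genes lie below 0.

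The fibrillar chains of the stroma lay slightly above 0 without passing the test. All 7 tested members were higher in MPA by 0.10 to 0.41 (median 0.27), and 0 of 7 were called by limma. Within station 2 all 7 were below 0 (median -0.58), and without MPA 2 the median was 0.62. Col1a1, the alpha 1 chain of type I collagen, had a lowest, median and highest log2 intensity of 11.84, 12.88 and 13.03 in MPA and 12.16, 12.72 and 12.87 in vehicle. The vehicle range lay wholly inside the MPA range, and the difference was 0.10 (SE 0.20, 95% interval -0.34 to 0.54, limma adjusted p = 1.00). Col1a2, which supplies the second chain type of the same molecule, had 12.02, 13.28 and 13.52 in MPA and 12.30, 12.95 and 13.23 in vehicle. Its difference was 0.27 (SE 0.25, 95% interval -0.27 to 0.82), and MPA 2 was its lowest array and MPA 5 its highest. Col3a1, the single chain of type III collagen that forms fibrils with type I, had 11.46, 12.85 and 13.12 in MPA and 12.03, 12.61 and 12.72 in vehicle. The difference was 0.16 (SE 0.25, 95% interval -0.38 to 0.70). With the probe sets used, the interval ended below a doubling in intensity, which is 1 on this scale, for each of these 3 genes. Other, dimmer probe sets gave larger differences for Col1a1 (0.33) and Col3a1 (0.23). For Col1a2 such probe sets gave 0.35 and, close to the filter, 0.13. Intervals for these other probe sets are not given, so the bound covers only the probe sets used.

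Type V collagen starts fibrils and limits their width, and its chains varied more. Col5a1 had a lowest, median and highest value of 7.50, 9.41 and 9.98 in MPA and 8.24, 9.01 and 9.34 in vehicle, with a difference of 0.28 (SE 0.36). Col5a2 had 7.04, 9.39 and 10.13 in MPA and 7.79, 8.94 and 9.21 in vehicle, with a difference of 0.41 (SE 0.47). MPA 2 was the lowest and MPA 5 the highest array for both, on either side of every vehicle array. Col5a3, a further type V chain, averaged 4.24 ± 1.01 in MPA and 3.97 ± 0.41 in vehicle (SD, n = 6 each), close to the filter, and was above 4 on 5 MPA and 3 vehicle arrays. Col11a1, a chain of the minor fibrillar type XI, averaged 5.74 ± 1.03 in MPA and 5.40 ± 0.44 in vehicle (SD, n = 6 each), with a difference of 0.35 (SE 0.41). Its highest vehicle array was vehicle 1, at 6.23, against 5.05 to 5.52 in the other vehicle arrays.

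Type VI collagen, which links cells to the fibril network, had 4 tested chains, all above 0 by 0.18 to 0.41 and none called. Col6a1 had a lowest, median and highest value of 8.42, 10.62 and 11.07 in MPA and 9.16, 10.10 and 10.59 in vehicle, with a difference of 0.32 (SE 0.42). The corresponding values of Col6a2 were 8.70, 10.71 and 11.29 in MPA and 9.45, 10.36 and 10.70 in vehicle, with a difference of 0.27 (SE 0.40). Col6a3, the largest chain of the molecule, had 7.50, 10.18 and 10.85 in MPA and 8.94, 9.72 and 10.28 in vehicle, with a difference of 0.18 (SE 0.49) that was -0.0105 without MPA 6. In all 3, MPA 2 lay below every other array and MPA 5 and MPA 6 above every vehicle array. Col6a4, a chain that can replace Col6a3, spread furthest of the type VI genes, from 4.86 in MPA 2 to 8.46 in MPA 5, and the vehicle arrays lay between 6.18 and 7.99. Its difference was 0.41 (SE 0.56). A second, dimmer Col6a4 probe set, above 4 on 3 arrays, gave -0.265, and the mean of all Col6a4 probe sets gave 0.07.

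The FACIT collagens that decorate fibrils had 3 tested members of 9. Col12a1, which binds type I fibrils in tissue under load, had a lowest, median and highest value of 4.51, 6.34 and 7.01 in MPA and 4.74, 5.69 and 6.37 in vehicle, with a difference of 0.55 (SE 0.39). Col14a1, its close relative, had 3.48, 6.31 and 6.88 in MPA and 4.08, 5.38 and 6.27 in vehicle, with a difference of 0.53 (SE 0.56). For both, 5 of 6 MPA arrays lay above the vehicle mean and MPA 2 lay below every vehicle array. Col16a1 averaged 7.61 ± 0.90 in MPA and 7.64 ± 0.55 in vehicle (SD, n = 6 each), a difference of -0.03 (SE 0.39). That sign turned when MPA 2 (0.28), MPA 4 (0.05), vehicle 2 (0.15) or vehicle 3 (0.02) was left out.

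Among basement membrane collagens the type IV chain pair Col4a5 and Col4a6 had the largest positive differences of the class over all 12 arrays, and Col4a6 of all 23. Without MPA 2, Col14a1 (1.01), Col6a4 (0.89) and Col12a1 (0.89) exceeded Col4a6 (0.86). Type IV molecules are built from fixed combinations of chains: Col4a1 with Col4a2 in nearly all basement membranes, and Col4a5 with Col4a6 in those of some epithelia and of smooth muscle. The genes of each pair lie head to head in the genome. The RefSeq promoter windows of these 4 genes, 250 bases before to 50 after the annotated start on GRCm38.p6, are given because the pairs are neighbours whose values are set side by side next. Col4a1 (chr8:11312777-11313076, minus strand) and Col4a2 (chr8:11312555-11312854, plus strand) have annotated starts 21 bases apart, and capitals mark the 78 bases that both windows hold, on opposite strands.
Col4a1: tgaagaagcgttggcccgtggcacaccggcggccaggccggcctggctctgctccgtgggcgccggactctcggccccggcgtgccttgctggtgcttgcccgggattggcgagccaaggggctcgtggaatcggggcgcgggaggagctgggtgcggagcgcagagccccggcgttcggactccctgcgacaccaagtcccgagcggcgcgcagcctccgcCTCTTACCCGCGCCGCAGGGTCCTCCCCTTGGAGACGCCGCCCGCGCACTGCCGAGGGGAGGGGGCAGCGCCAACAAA
Col4a2: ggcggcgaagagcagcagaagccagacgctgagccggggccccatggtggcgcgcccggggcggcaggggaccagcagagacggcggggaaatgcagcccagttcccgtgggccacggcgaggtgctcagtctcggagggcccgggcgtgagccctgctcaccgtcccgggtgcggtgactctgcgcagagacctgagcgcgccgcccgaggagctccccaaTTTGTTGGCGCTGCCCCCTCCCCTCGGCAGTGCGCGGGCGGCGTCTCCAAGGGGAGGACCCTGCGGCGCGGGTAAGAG
Col4a5 (chrX:141475169-141475468, plus strand) and Col4a6 (chrX:141474027-141474326, minus strand) have annotated starts 1343 bases apart, their windows share no base, and capitals mark matches to CCAAT or GGGCGG on either strand, of which none overlap.
Col4a5: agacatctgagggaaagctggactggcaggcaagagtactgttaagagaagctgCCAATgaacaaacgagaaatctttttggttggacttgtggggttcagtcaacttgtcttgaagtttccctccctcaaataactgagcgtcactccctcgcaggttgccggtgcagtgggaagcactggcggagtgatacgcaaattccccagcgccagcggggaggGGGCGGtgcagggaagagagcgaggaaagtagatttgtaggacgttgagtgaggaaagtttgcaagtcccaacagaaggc
Col4a6: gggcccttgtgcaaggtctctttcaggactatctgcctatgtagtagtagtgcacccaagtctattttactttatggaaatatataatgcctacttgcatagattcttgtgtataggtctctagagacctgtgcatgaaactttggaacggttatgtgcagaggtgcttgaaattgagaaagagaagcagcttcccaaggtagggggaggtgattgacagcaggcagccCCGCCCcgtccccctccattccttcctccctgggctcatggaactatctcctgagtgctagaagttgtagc

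Over the arrays, Col4a6 had a lowest, median and highest log2 intensity of 6.05, 6.79 and 7.53 in MPA and 5.51, 5.94 and 6.89 in vehicle. MPA 5 and MPA 6 lay above every vehicle array, while vehicle 2 and vehicle 3 reached into the middle of the MPA range, and 5 of 6 MPA arrays were above the vehicle mean. The difference was 0.71 (SE 0.31, 95% interval 0.03 to 1.38, 1.63-fold). The unadjusted limma p was 0.0410, the adjusted p 0.996 and the exact permutation p 0.0671. Col4a5 had 6.41, 7.70 and 8.36 in MPA and 6.68, 6.96 and 7.74 in vehicle, a difference of 0.53 (SE 0.30, 95% interval -0.12 to 1.17). Its unadjusted limma p was 0.100 and its adjusted p 1.00. These were the only type IV chains above 0 within station 2, at 0.57 for Col4a6 (SE 0.30) and 0.05 for Col4a5 (SE 0.46). Second probe sets of the same genes gave 0.49 for Col4a6 and 0.60 for Col4a5.

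The widely used pair had smaller differences over all 12 arrays. Without MPA 2 the differences were 0.41 for Col4a1 and 0.73 for Col4a2, beside 0.77 for Col4a5 and 0.86 for Col4a6. Col4a1 had a lowest, median and highest value of 9.04, 10.89 and 11.65 in MPA and 10.08, 10.62 and 11.26 in vehicle, with a difference of 0.08 (SE 0.37, 95% interval -0.72 to 0.88). A second Col4a1 probe set gave a larger difference, 0.27, and Col4a2 had no second one. Col4a2 had 6.00, 8.74 and 9.50 in MPA and 7.36, 8.12 and 9.04 in vehicle, with a difference of 0.25 (SE 0.51, 95% interval -0.86 to 1.35). MPA 2 was the lowest array and MPA 5 the highest for both. With the probe set used, the Col4a1 difference was below 0 without MPA 3 (-0.0138), MPA 5 (-0.11) or vehicle 4 (-0.0343). Within station 2 the differences were -0.98 for Col4a1 and -1.28 for Col4a2, and the difference between the 2 type IV pairs was not tested. Col15a1, a basement membrane zone collagen around vessels and muscle, averaged 8.93 ± 0.77 in MPA and 8.63 ± 0.64 in vehicle (SD, n = 6 each), with a difference of 0.30 (SE 0.37). Col18a1, the source of the fragment endostatin, did not pass the filter. It lay between 3.43 and 4.40 in MPA, above 4 on 2 arrays, and between 3.16 and 3.68 in vehicle, above 4 on 0 arrays.

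Col8a1 was the tested network collagen, a short chain found under endothelium and made by smooth muscle cells, and it had the widest spread of the 23. Its values were 2.55 to 6.74 in MPA (median 5.40) and 3.55 to 6.26 in vehicle (median 5.28). The whole range was 4.19 on the log2 scale, or 18.2-fold, between MPA 2 and MPA 5. Vehicle arrays fell into low values (vehicle 2 and vehicle 3, at 3.55 and 3.57) and higher ones (4.76 to 6.26). The difference was -0.04 (SE 0.70, 95% interval -1.57 to 1.49), and it was 0.44 without MPA 2 and -0.39 without MPA 5. Within station 2 it was -2.13 (SE 0.82, limma adjusted p = 0.840), the largest within-station size of the 23. Its partner chain Col8a2 did not pass the filter and was above 4 on 0 MPA and 2 vehicle arrays.

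The 3 collagens with their lowest value in MPA 5 were Col7a1 and the transmembrane collagens Col17a1 and Col25a1, 0 of which were called. Col17a1, the transmembrane collagen of hemidesmosomes that fixes basal keratinocytes, had a lowest, median and highest value of 7.55, 8.94 and 9.68 in MPA and 8.49, 9.03 and 9.66 in vehicle. MPA 2 was its highest array and MPA 5 its lowest, the reverse of the fibrillar genes, and the difference was -0.29 (SE 0.31). The basal epithelial marker list had its extremes in the same arrays, and its part in this value was not tested. Col7a1, the anchoring fibril chain that ties the epithelial basement membrane to the stroma, averaged 5.33 ± 0.31 in MPA and 5.58 ± 0.35 in vehicle (SD, n = 6 each), with a difference of -0.25 (SE 0.18). Col25a1, a transmembrane collagen best known from neurons, had 3.24, 5.18 and 6.47 in MPA and 5.67, 6.25 and 7.13 in vehicle. In 5 of 6 MPA arrays it was below the vehicle mean, with MPA 4 and MPA 6 inside the vehicle range. The difference was -1.19 (SE 0.47, 95% interval -2.22 to -0.16, a ratio of 0.438), with an unadjusted limma p of 0.0266, an adjusted p of 0.982 and an exact permutation p of 0.0368. Without MPA 5 it was -0.82. These values rest on a single probe set. Another Col25a1 probe set lay near the floor, at 2.306 in MPA and 2.305 in vehicle, and was above 4 on 0 arrays.

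Of the collagens known from cartilage, Col2a1, Col9a1, Col9a3 and Col27a1 did not pass the filter and stood out in 1 vehicle array. Col9a2 (2.37), Col10a1 (2.39) and Col11a2 (2.29) did not stand out in that array, vehicle 1. Col2a1, the fibrillar collagen of cartilage, was at 2.36 to 2.56 in MPA and at 2.36 to 2.74 in 5 vehicle arrays, and at 6.67 in vehicle 1. Col9a3, a FACIT chain of the same fibrils, was at 2.45 to 2.60 in MPA, at 2.45 to 2.61 in 5 vehicle arrays and at 6.08 in vehicle 1. Col9a1 was at 4.23 and Col27a1 at 4.25 in vehicle 1 alone above 4, with MPA arrays at 2.40 to 2.41 and 2.62 to 3.28. The cartilage proteoglycan Acan (4.44) and the bone sialoprotein gene Ibsp (7.22) were also above 4 in vehicle 1 alone, while Comp, Matn1, Matn3, Hapln1 and Sp7 were never above 4 on any array. Of the 9 cartilage and bone markers 2 were tested (Chad and Sox9), and neither was highest in vehicle 1. Chad was at 8.63 to 10.48 in MPA and 9.16 to 10.26 in vehicle, with 10.22 in vehicle 1, and Sox9 was at 6.41 to 7.29 in MPA and 6.53 to 7.22 in vehicle, with 7.07 in vehicle 1. The summed intensity of the list was 519 to 1607 in MPA and 708 to 1522 in vehicle. The embryonic globin Hbb-y was at 2.89 to 5.33 in MPA, at 4.11 to 6.90 in 5 vehicle arrays and at 9.88 in vehicle 1. The yolk sac gene Afp was at 3.61 to 6.36 in MPA and 6.02 to 7.43 in vehicle, with its highest value in vehicle 4 and 7.12 in vehicle 1. The part of other tissue in these values was not tested, and none of these collagens entered the count of 23. Without vehicle 1, 19 of the 23 lay above 0 and 0 were called, against 1 of all 8795 genes.

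**Figure D4:**
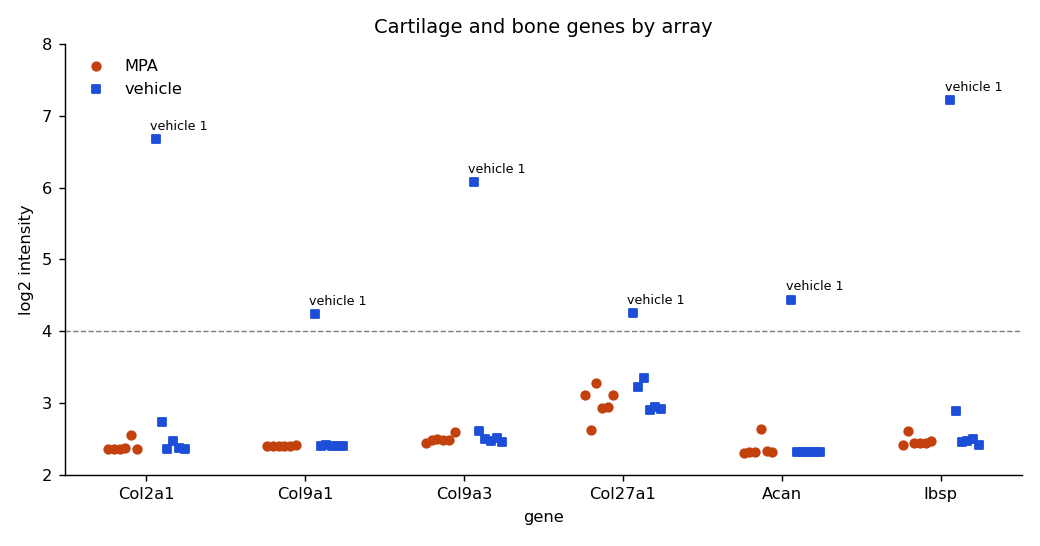
Log2 intensity (y axis) is shown for each array, MPA arrays left and vehicle arrays right, with the filter value of 4 as a line. Only those cartilage and bone genes that exceed 4 in vehicle 1 alone are drawn. Others, such as Chad, Sox9, Comp and Col9a2, are left out. Col2a1, Col9a3, Col9a1, Col27a1, Acan and Ibsp exceed 4 in vehicle 1 alone.

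The other 13 collagen genes were never above 4 on any array. They comprise the fibrillar Col11a2 and Col24a1, the kidney and lung type IV chains Col4a3 and Col4a4, the hypertrophic cartilage chain Col10a1 and the type VI chain Col6a5. The remaining ones are the FACIT genes Col9a2, Col19a1, Col20a1 and Col22a1, the transmembrane Col13a1 and Col23a1, and Col26a1. An intensity this low does not show that a gene is silent.

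Partner chains followed each other closely over the arrays. Of 14 pairs named from shared molecules or fibrils, 9 had both genes tested. Across the 12 arrays, Pearson's r was 0.981 for Col1a1 with Col1a2 (Spearman's rho 0.951), 0.983 for Col4a1 with Col4a2 (rho 0.909) and 0.928 for Col4a5 with Col4a6 (rho 0.902). Type VI chains had r of 0.989 for Col6a1 with Col6a2, 0.978 for Col6a1 with Col6a3 and 0.977 for Col6a2 with Col6a3, each with rho 0.972. Of the other fibril pairs, r was 0.975 for Col5a1 with Col5a2 (rho 0.860), 0.975 for Col5a2 with Col3a1 (rho 0.860) and 0.969 for Col3a1 with Col1a1 (rho 0.937). Permutation p of r was 1e-05, the smallest that 100000 draws can give (adjusted over the 9 pairs 1.12e-05), for all but Col4a5 with Col4a6 (4e-05), and the largest adjusted permutation p of rho was 0.00076. Without the 2 arrays farthest from the median of the first gene, r was 0.891 to 0.975. Within MPA alone r was 0.922 to 0.997 and within vehicle alone 0.933 to 0.992, on 6 arrays each. Such agreement is not confined to partners: over all 253 pairs of tested collagens the median r was 0.818 and 51.8% were above 0.8. The partner values therefore stand against a family whose members already ran together. Nor need it be confined to collagens: the fibroblast and smooth muscle lists were low in the same arrays, and pairs of other genes were not computed. The permutation p values are against no correlation at all. Vehicle 6 had the highest Col4a1 (11.26) and Col4a2 (9.04) of the vehicle arrays. Its Col4a5 of 6.90 lay just below the vehicle median of 6.96, and its Col4a6 of 5.67 below that of 5.94.

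**Figure D5:**
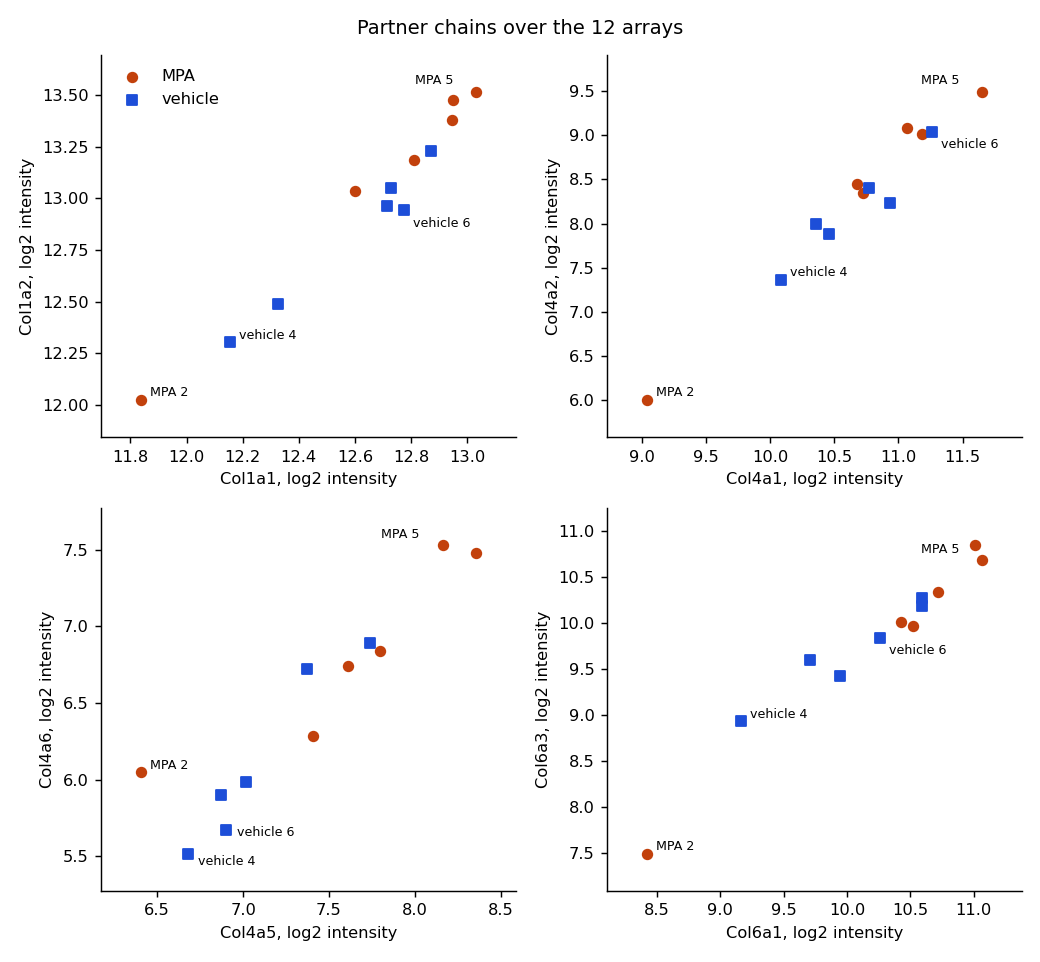
Each of the 4 panels plots the log2 intensity of one chain against its partner over the 12 arrays, with MPA and vehicle arrays in different colours. Points fall near a line in each panel (r 0.928 to 0.983). Among vehicle arrays, vehicle 6 lies high for Col4a1 and Col4a2, just below the median for Col4a5 and below it for Col4a6.

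Promoter windows were listed in RefSeq for 19 of the 23 tested members (not Col1a1, Col5a2, Col12a1 and Col14a1), 20 windows in all. Col1a2, whose window is chr6:4505368-4505667 on the plus strand of GRCm38.p6, is shown as the type I chain with a listed window, with matches to CCAAT or GGGCGG on either strand in capitals.
Col1a2: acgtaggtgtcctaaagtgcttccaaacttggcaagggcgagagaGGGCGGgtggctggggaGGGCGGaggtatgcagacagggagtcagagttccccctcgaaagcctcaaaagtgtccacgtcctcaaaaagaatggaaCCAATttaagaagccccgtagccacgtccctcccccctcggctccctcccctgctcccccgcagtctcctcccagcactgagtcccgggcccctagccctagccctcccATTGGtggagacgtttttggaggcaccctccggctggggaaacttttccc
CCAAT was found in 11 of the 20 collagen windows and in 37.4% of all 32851 windows. GGGCGG was found in 15 of 20, against 35.7% of all windows, and TATAAA in 2 (Col3a1 and Col17a1), against 13.6%. All 3 motifs were searched on both strands. These matches describe letters in short windows only.

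Around the collagen genes, the other parts of the pathway gave no called gene either, and their counts stand beside 56.3% of all genes above 0 with a median of 0.02. Within station 2 the medians of these 6 lists ran from -1.04 to 0.001. The enzymes and chaperones that modify and fold procollagen in the endoplasmic reticulum had 16 tested members of 21, 15 above 0 and 1 below, with a median of 0.17, and 0 called. Ppib, the prolyl isomerase cyclophilin B, averaged 11.79 ± 0.17 in MPA and 11.52 ± 0.15 in vehicle (SD, n = 6 each), with a difference of 0.26 (SE 0.10, limma adjusted p = 0.955). P4ha2, a prolyl 4-hydroxylase subunit, averaged 5.70 ± 0.54 in MPA and 5.23 ± 0.45 in vehicle, with a difference of 0.46 (SE 0.26). Of the extracellular enzymes that trim and crosslink procollagen, 8 of 11 were tested, 5 above 0 and 3 below, with a median of 0.20 and 0 called. Tgm2, tissue transglutaminase, was at -0.19 (SE 0.09), and Pcolce2, a procollagen proteinase enhancer, at -0.55 (SE 0.28).

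Small proteoglycans and glycoproteins that bind fibrils had 13 tested members of 15, with 8 above 0, a median of 0.11 and 0 called. Tnxb (tenascin X, which organises fibrils) was at 0.86 (SE 0.44) and Thbs2 (thrombospondin 2, whose loss disturbs fibrils and which is known from cervical maturation) at -0.53 (SE 0.34), with 0.14 and -1.03 within station 2. Of the collagen receptors, 8 of 12 were tested, 4 above 0 and 4 below, with a median of 0.01. Their named members were Ddr1, a receptor tyrosine kinase (-0.16, SE 0.10), and Antxr1, which binds type VI collagen (-0.25, SE 0.24). Collagen-degrading proteases had 7 tested members of 14, all above 0, with a median of 0.15 and 0 called, while the interstitial collagenases Mmp8 and Mmp13, the gelatinase Mmp9 and the bone protease Ctsk were never above 4. Mmp2, the gelatinase A gene, was at 0.45 (SE 0.54) and Ctsl, cathepsin L, at 0.19 (SE 0.13). Of the laminins, nidogens and other partners in the basement membrane, 13 of 19 were tested, 8 above 0, with a median of 0.04 and 0 called. Npnt (nephronectin, a basement membrane ligand of integrins) averaged 6.33 ± 0.39 in MPA and 7.25 ± 0.37 in vehicle (SD, n = 6 each), with a difference of -0.93 (SE 0.21, limma adjusted p = 0.592), and 0 of 6 MPA arrays were above the vehicle mean. Lamb3, a laminin 332 chain made by basal epithelium, was at -0.64 (SE 0.31).

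The marker lists gave no called gene in any of 9. Differences were above 0 in 14 of 14 fibroblast genes (median 0.13, Thy1 0.64 and Mfap5 0.28), in 7 of 10 smooth muscle genes (median 0.01, Cnn1 0.22 and Acta2 0.12) and in 6 of 6 macrophage genes (median 0.64, Aif1 0.93 and Tyrobp 0.69). They were above 0 in 1 of 9 basal epithelial genes (median -0.13, Sfn -1.06 and Itgb4 -0.53), in 0 of 5 cornified genes (median -0.54, Ivl -0.93 and Sprr1a -1.17) and in 2 of 8 skeletal muscle genes (median -0.60, Tnnc2 -1.18 and Myl1 -1.20). Of the small lists, both endothelial genes tested lay near 0 (Egfl7 -0.11 and Tek 0.03), both cartilage genes tested did so too (Chad 0.13 and Sox9 0.0040), and both fetal or yolk sac genes were below 0 (Hbb-y -2.71 and Afp -1.30). Within station 2 the median turned for the fibroblast (-0.96), smooth muscle (-0.68), basal epithelial (0.16) and cornified (0.01) lists. It kept its sign for the macrophage (0.41), skeletal muscle (-0.78), endothelial (-1.14), cartilage (0.73) and fetal (-0.51) lists.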

How the data were processed

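The authors deposited one table of intensity values on a linear scale, made with GCRMA per the submitters' processing notes, with no version given in the sources used here. GCRMA adjusts each probe's background for its base content, scales the arrays to one distribution and combines probes, so low values are compressed towards a floor. Per the labels' protocols, RNA was isolated with Trizol and a column, and amplified from 100 ng. Array medians were 6.62 to 6.86, and 8583 to 8960 genes per array were above log2 4. The number of arrays limits the precision.

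Values were taken as log2 with no pseudocount. Probe sets were named from the platform annotation (34958 of 45101 with 1 symbol, 932 with several and left out, 9211 not listed). Groups came from the sample titles. limma 3.58.1 in R 4.3.3 (lmFit and eBayes, no covariates) was fitted over 8795 genes, called at an adjusted p under 0.05, and tested on simulated data. Exact permutation tests and correlations used Python 3.11.15 with scipy 1.17.1. Every tested collagen gene is named. From each further list the 2 tested members with the smallest unadjusted p are named, since none was called. The collagen genes, lists and tests were chosen with earlier results of these data known. Basement membrane was taken to include types XV and XVIII. Levels of different genes were not compared. The alternatives changed the filter, the choice of probe set, normalization, pseudocount, variance model, station, replicate number, RNA quality, first principal component and arrays left out. Scan images were not analysed here.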

Additional observations from a re-analysis of the deposited data

Results flagged for a closer look

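In groups of 6 arrays, 30 of 122 sets of values (18 of 58 for collagen genes) held an array whose gap to the nearest other one was a large share of the group's range by Dixon's criterion at the 95% level. Chance flags about 1 in 20, and these genes are correlated, so flags in one array are not independent. Collagen genes below the filter entered this check only if above 4 on some array, and Acan and Ibsp were added by name. Col2a1, Col9a1, Col9a3 and Col27a1 entered through vehicle 1 alone. Their flags in that array were largely fixed by this choice, so the chance rate is no measure for them.

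Most concerned MPA 2, which stood low. Among collagens it lay at 11.84 for Col1a1, 12.02 for Col1a2, 11.46 for Col3a1, 9.04 for Col4a1, 6.00 for Col4a2, 7.50 for Col5a1, 7.04 for Col5a2, 8.42 for Col6a1, 8.70 for Col6a2, 7.50 for Col6a3 and 4.86 for Col6a4. Other genes of the lists in which MPA 2 stood low were Acta2 at 11.39, Mfap5 at 3.52, Mmp2 at 4.76 and P4ha2 at 4.63, and it stood high among low values for Ibsp at 2.61.

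Vehicle 1 stood high for Col2a1 at 6.67, Col9a3 at 6.08, Col9a1 at 4.23, Col27a1 at 4.25, Acan at 4.44 and Ibsp at 7.22. Vehicle 4 stood low for Col18a1 at 3.16, Egfl7 at 3.79, Mmp2 at 4.96 and Tek at 3.73. MPA 5 stood low for Ivl at 3.04. Below the filter value of 4, MPA 5 stood high for Col2a1 at 2.56, MPA 6 for Col9a3 at 2.60 and MPA 4 for Acan at 2.64.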

How the results depend on the processing

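No alternative called a collagen gene, and the smallest limma adjusted p of a collagen gene over all of them was 0.431. Each alternative called only 0 or 1 of all genes tested, which numbered 5942 to 18194. Of 543 differences of collagen genes under alternatives, 487 kept their sign and 56 did not, and for the other named genes 670 of 705 did. Part of these counts was fixed in advance. Changes of filter, variance model and replicate block leave a difference as it is. So does the mean of all probe sets for a gene with a single one. All 9 correlations of partner chains kept their sign and call in 135 of 135 repeats (r 0.871 to 0.995, largest adjusted permutation p 0.00047). Most of those repeats left out a single array, and at such r a change of sign or call was hardly possible. With the fluidics station as a block, which uses only the arrays of station 2 for the contrast, and within station 2 alone, 3 of 23 collagen genes lay above 0 in place of 18. The values, the same in both, were -0.58 for Col11a1, -0.034 for Col12a1, -0.98 for Col14a1, -0.38 for Col15a1, 0.15 for Col17a1, -0.42 for Col1a1, -0.35 for Col1a2, -0.50 for Col3a1, -0.98 for Col4a1, -1.28 for Col4a2, -0.63 for Col5a1, -0.97 for Col5a2, -1.04 for Col5a3, -0.63 for Col6a1, -0.78 for Col6a2, -0.90 for Col6a3 and -0.077 for Col6a4. For other genes they were -0.026 for Ctsl, -0.78 for Mmp2, -1.46 for Mfap5, -0.57 for Cnn1, -0.47 for Acta2, 0.22 for Itgb4 and -1.36 for Tek. Only 2 arrays a group stand behind them, MPA 2 among them, and the cause was not tested. With the first principal component as a covariate, 14 collagen genes lay above 0, and values turned for Col1a1 (-0.0067), Col4a1 (-0.14), Col4a2 (-0.051), Col6a3 (-0.12), Mfap5 (-0.020), Cnn1 (-0.043), Acta2 (-0.053) and Tek (-0.24). With RNA quality as a covariate they turned for Col4a1 (-0.034), Col6a3 (-0.055) and Tek (-0.20). Leaving out MPA 2 and MPA 5 turned Col16a1 (0.11), Col8a1 (0.12), Egfl7 (0.0041) and Sox9 (-0.030). A pseudocount of 16 turned Col8a1 (0.0036), and quantile normalization turned Sox9 (-0.011). With each array left out in turn, differences ran from -0.23 to 0.28 for Col16a1, -0.11 to 0.41 for Col4a1, -0.0105 to 0.66 for Col6a3, -0.39 to 0.44 for Col8a1, -0.013 to 0.61 for Cnn1, -0.30 to 0.12 for Egfl7, -0.18 to 0.43 for Tek and -0.097 to 0.092 for Sox9.

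The titles number the arrays 1 to 6 in both groups, and no pairing by number was seen. The correlation of deviations of same-numbered arrays ran from -0.60 to 0.05, and 0 of 6 MPA arrays correlated best with their own number. That check takes all tested genes together, so it cannot exclude a shared factor of small effect. With the replicate block, 0 of 23 collagen genes and 0 of all 8795 genes were called, and 18 collagen genes lay above 0. Over all genes 276 had an unadjusted limma p under 0.05, against 440 without the block.

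The arrays' number, an uneven station layout and the spread of MPA 2 limit what differences could be found. Signal near the GCRMA floor limits the 19 collagen genes below the filter.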
